A study of Drosophila melanogaster with 4 samples.

Results

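The comparison described here is that of female *Drosophila melanogaster* brains exposed to sodium arsenite (NaAsO2) with female brains kept on control medium, measured gene by gene in single nuclei. It uses the 2 female libraries of a series of 4 libraries, 1 for each sex and treatment, and 44520 of the 69415 nuclei in the series. A gene entered the comparison when its unique molecular identifiers (UMIs, each a counted RNA molecule) summed to at least 200 over the 2 female libraries, which 8093 of 17772 annotated features did. The summed UMIs of a gene in a library were divided by those of all its genes and given per 1000000 (CPM), and each gene was described by the log2 ratio of its CPM after NaAsO2 to its CPM in the control.

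Both groups were Canton S (B) (CSB) females that were 3 to 5 days old when exposure began. The NaAsO2 group spent 6 days on medium with 250 µM NaAsO2, and the control group spent the same time on medium without it. Each library was made from 10 brains pooled before the nuclei were released, so the animals of a pool cannot be separated. There is 1 library per group, and therefore no replicate error, no test and no p-value. The intervals given below are exact 95% intervals for counting error and cover nothing else, and a gene is called higher or lower when its CPM ratio was at least 1.5-fold. In sums of this kind, a change in the number of cells of a type and a change in the RNA per cell cannot be told apart.

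Arsenite binds to sulfhydryl groups of proteins and to glutathione, and it enters cells through aquaglyceroporins. In flies and other animals, exposure to metals is met by metallothioneins, small cysteine-rich proteins that bind metal ions, by glutathione S-transferases and other detoxifying enzymes, and by heat shock proteins. In the fly brain, neurons express the RNA-binding protein Elav and most glia the homeodomain protein Repo. Peptide hormones are made by small sets of neurons with very high transcript levels, and fat body and blood cells lie against the brain surface.

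The NaAsO2 library had more nuclei with fewer molecules in each. It had 45357480 UMIs in 25332 nuclei, and the control had 53360256 UMIs in 19188 nuclei. The median nucleus held 1374 UMIs from 763 genes after NaAsO2, against 2222 UMIs from 1042 genes in the control. Nuclei with 10000 or more UMIs numbered 120 after NaAsO2 and 220 in the control, and they held 6.83% of the UMIs after NaAsO2 and 9.50% in the control. Of these nuclei, 48 after NaAsO2 and 69 in the control had UMIs of both *elav* and *repo*, and doublets were not removed. The 2 libraries had 135 cell barcodes in common, and 314 barcodes of the NaAsO2 library (1.24%) and 275 of the control (1.43%) occurred in at least 1 other library of the series. Mitochondrial and ribosomal RNA genes held 0.255% of UMIs after NaAsO2 and 0.212% in the control. *lncRNA:roX1*, an RNA of the male dosage compensation complex, stood at 115 CPM after NaAsO2 and 93.9 CPM in the control females, against 22102 CPM after NaAsO2 and 16386 CPM in the control in males.

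Most genes differed little between the 2 female libraries, and more were higher than lower after NaAsO2. Over all nuclei, 274 genes (3.39% of those measured) were at least 1.5-fold higher and 39 (0.482%) at least 1.5-fold lower. The interval lay wholly past 1.5-fold for 155 of the higher and 23 of the lower genes, and 116 genes were at least 2-fold higher and 16 at least 2-fold lower. The median log2 ratio was 0.08, and the middle 50% of genes lay between -0.03 and 0.21. When ratios were centred on that median, 216 genes were higher and 54 lower. As mean UMIs per nucleus, with no division by the total, every log2 ratio was shifted by -0.64 and 82 genes were higher and 3478 lower, and when every nucleus counted equally 150 were higher and 77 lower. Without the nuclei of 10000 or more UMIs, 173 of the 274 higher genes and 34 of the 39 lower genes still passed.

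**Figure D1:**
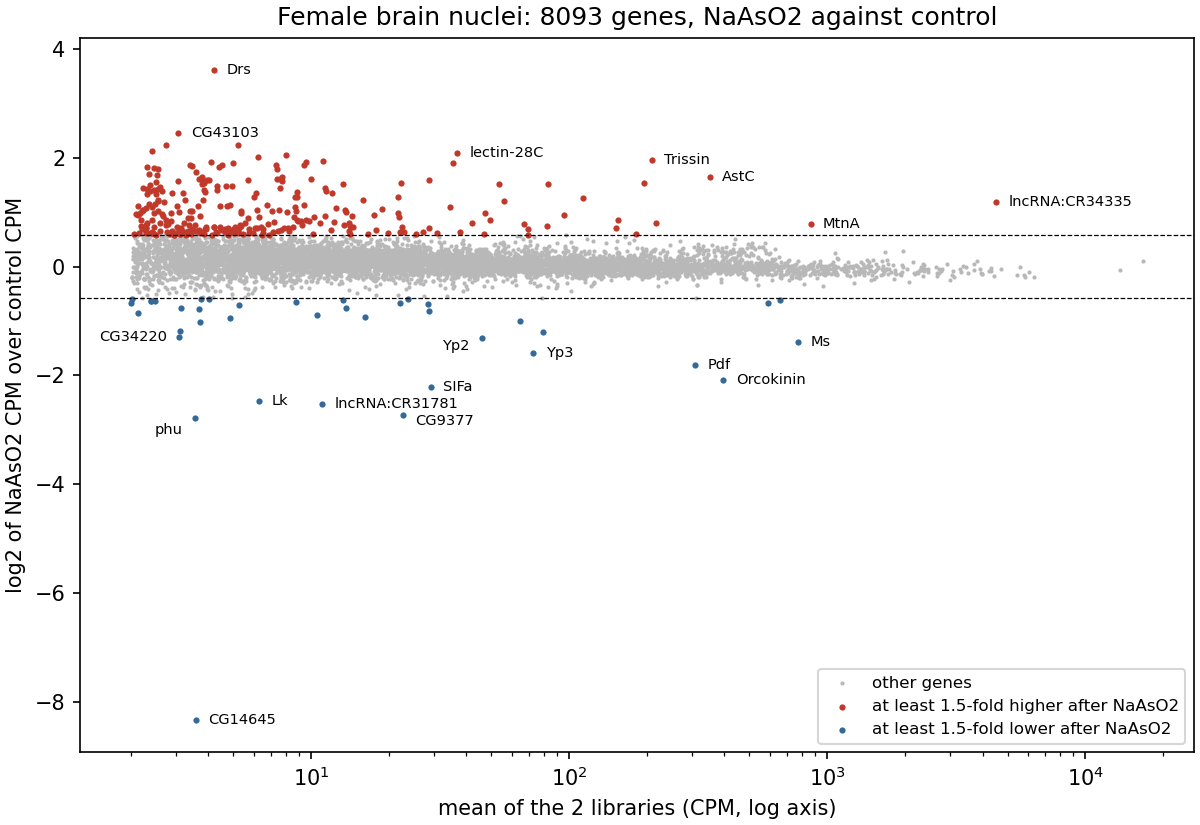
Log2 ratio of NaAsO2 CPM over control CPM (vertical axis) against the mean CPM of the 2 libraries (horizontal log axis) for 8093 genes over all female nuclei; dashed lines mark 1.5-fold. The 274 higher genes (red) include *Drs* at 3.61, and the 39 lower genes (blue) include *CG14645* at -8.34 and a group of peptide genes between *Ms* at -1.38 and *Lk* at -2.47.

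*Drs* (3L:3369556-3369942, Release 6), which encodes the antifungal peptide drosomycin, had the highest ratio of all genes measured. It had 354 UMIs after NaAsO2 and 34 in the control, or 7.80 CPM after NaAsO2 and 0.637 CPM in the control. The log2 ratio was 3.61 (3.1 to 4.17), and it stayed between 3.33 and 3.87 in the settings that thinned or rescaled nuclei or left out the deepest nuclei, the nuclei richest in *Drs* or those with blood cell markers. The UMIs were spread over 232 nuclei after NaAsO2 and 29 in the control, with at most 18 in a nucleus after NaAsO2 and at most 4 in the control. In males, whose NaAsO2 library held deeper nuclei, *Drs* stood at 2.30 CPM after NaAsO2 and 1.47 CPM in the control.

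Of 29 immune peptide genes, 12 reached the minimum, 6 of them were higher and none was lower, where 3.39% of all genes were higher. Their median log2 ratio was 0.62, against 0.08 over all genes. That median turned to -0.14 when every nucleus counted equally and to -0.015 as mean UMIs per nucleus. Beside *Drs*, these were the Bomanin genes *BomS4* (1.5), *BomT3* (1.12), *BomT2* (1.02) and *BomS6* (0.81), whose short secreted products act in Toll-dependent defence, and the immune-induced gene *IM33* (1.02). *BomS4* had 159 UMIs after NaAsO2 and 66 in the control. Bomanin genes have close copies, between which reads can be split. When every nucleus counted equally, *BomS4* stood at 0.70, *BomT2* at 0.33, *IM33* at 0.05, *BomT3* at 0.02 and *BomS6* at -0.35. The list's median was 0.14 without nuclei of 10000 or more UMIs, where *BomS6* had a log2 ratio of 0.14 and *Drs* one of 3.59. Of 8 Turandot genes, which encode secreted stress peptides, *TotA* and *TotC* were measured, and *TotA* had 4.5 CPM after NaAsO2 and 6.62 CPM in the control (log2 ratio -0.56).

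Genes with much of their signal in nuclei that carried markers of plasmatocytes, the phagocytic blood cells of the fly, made up 7 of the 12 highest. *lectin-28C*, a C-type lectin gene, had 2705 UMIs (59.6 CPM) after NaAsO2 and 751 UMIs (14.1 CPM) in the control, a log2 ratio of 2.08 (1.97 to 2.20). The lectin gene *lectin-24Db* (1.94), *Idgf1* (1.93), which encodes a secreted chitinase-like growth factor, the cytochrome P450 gene *Cyp6a23* (2.13) and the little-described genes *CG42711* (2.05), *CG31777* (2.02) and *CG42369* (1.93) stood beside it. Nuclei with UMIs of at least 3 of 8 plasmatocyte markers held 5.15% of all UMIs after NaAsO2 and 4.25% in the control. Of them, 40 after NaAsO2 and 34 in the control had both *elav* and *repo* UMIs. These held 1447285 of the 2335872 UMIs of the marked nuclei after NaAsO2 and 1390250 of 2267672 in the control. The marked nuclei are thus called by their markers and not taken as blood cells alone. They held 83.3% of the *lectin-28C* UMIs after NaAsO2 and 67.8% in the control. For *CG42711* the shares were 83.4% after NaAsO2 and 66.3% in the control, for *Cyp6a23* 72.5% after NaAsO2 and 62.5% in the control, and for *Idgf1* 61.2% after NaAsO2 and 50.5% in the control. *CG31777* had 49.8% of its UMIs in such nuclei after NaAsO2 and 44.3% in the control. *Drs* had 22.9% of its UMIs in such nuclei after NaAsO2 and 17.6% in the control.

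The plasmatocyte markers themselves moved with these genes. Of 8 markers, 7 were higher, where 3.39% of all genes were, and the list's median log2 ratio was 1.47. *Hml*, which encodes the clotting protein hemolectin, had 79.5 CPM after NaAsO2 and 27.8 CPM in the control. *NimC1*, a phagocytic receptor gene, had 11.8 CPM after NaAsO2 and 3.75 CPM in the control. The matrix and peroxidase gene *Pxn* was the exception, with 142 CPM after NaAsO2 and 144 CPM in the control. The summed level of the 8 markers was 477 CPM after NaAsO2 and 283 CPM in the control, and none was at 0. Nuclei with at least 3 of the markers numbered 330 after NaAsO2 (1.30% of nuclei) and 204 in the control (1.06%), and after every nucleus was thinned to 1000 UMIs they made up 0.901% after NaAsO2 and 0.446% in the control. Without these nuclei, 186 of the 274 higher genes still passed, and all 7 genes stayed above 1.5-fold: *lectin-28C* had a log2 ratio of 1.15, *CG42711* of 1.04, *lectin-24Db* of 1.25, *CG42369* of 1.49, *Idgf1* of 1.59, *Cyp6a23* of 1.69 and *CG31777* of 1.88. The part of the marked nuclei in the remaining differences was not tested.

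**Figure D2:**
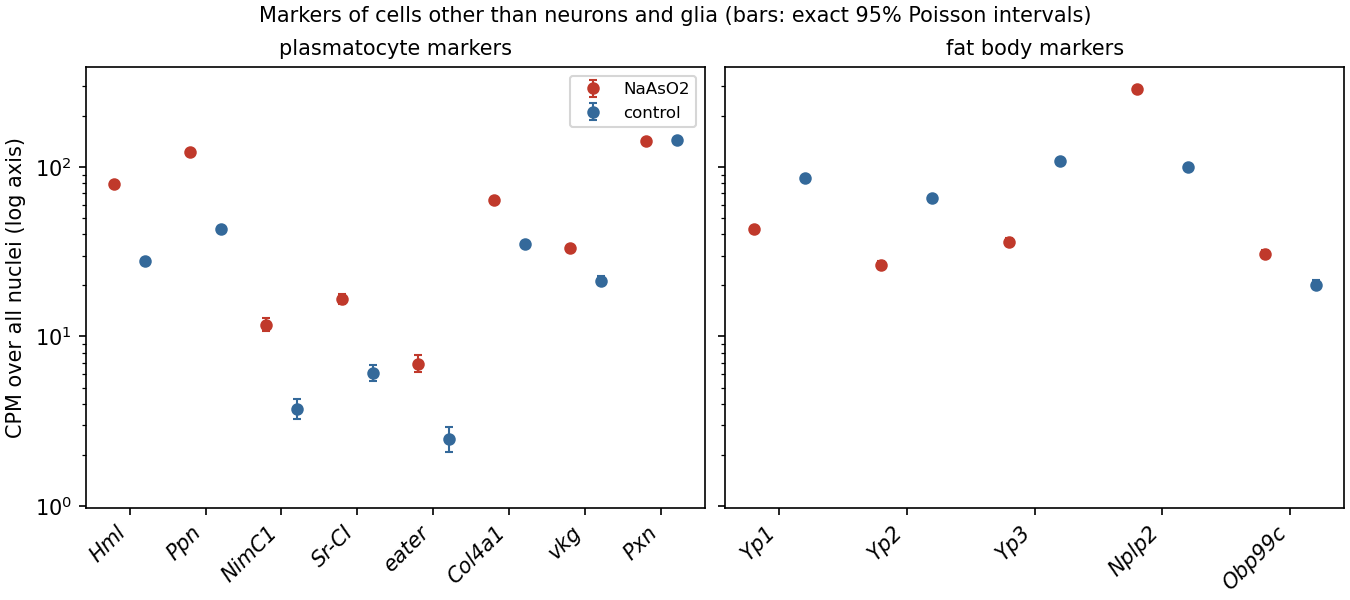
CPM over all nuclei (log axis) of 8 plasmatocyte markers (left) and of the 5 fat body markers that reached the minimum (right) in the NaAsO2 library (red) and the control (blue), with exact 95% Poisson intervals. *Hml* stands at 79.5 CPM after NaAsO2 and 27.8 CPM in the control and *Pxn* at about the same level in both, whereas the fat body markers differ in direction, with *Yp3* at 36.1 CPM after NaAsO2 and 109 CPM in the control and *Nplp2* at 290.2 CPM after NaAsO2 and 100.3 CPM in the control.

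Genes with a large share of their UMIs in nuclei with at least 3 of 7 fat body markers, which include the 3 yolk protein genes, went both ways. Of these nuclei, 101 of 190 after NaAsO2 and 261 of 405 in the control also had an *elav* and no *repo* UMI. *Npc2g*, which encodes a lipid-binding protein of the Niemann-Pick type C2 family, had 391 UMIs (8.62 CPM) after NaAsO2 and 98 UMIs (1.84 CPM) in the control, a log2 ratio of 2.23 (1.91 to 2.57). *CG43103* (2.47) and *CG15096* (2.24) were also among the 12 highest genes. The marked nuclei held 77.8% of the *Npc2g* UMIs after NaAsO2 and 66.3% in the control, and 61.7% of those of *CG43103* after NaAsO2 and 38% in the control. For *CG15096* the shares were 79.5% after NaAsO2 and 66.7% in the control. *CG15096* depended on deep nuclei, with a log2 ratio of 1.12 without the nuclei of 10000 or more UMIs, where *CG43103* stood at 2.05.

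The yolk protein genes, expressed by the female fat body and ovary, were lower after NaAsO2. *Yp3* had 1638 UMIs (36.1 CPM) after NaAsO2 and 5822 UMIs (109 CPM) in the control, a log2 ratio of -1.60. *Yp2* had 26.5 CPM after NaAsO2 and 65.5 CPM in the control (-1.30), and *Yp1* 42.9 CPM after NaAsO2 and 86.2 CPM in the control (-1.01). All 3 genes are related in sequence, and their ratios lay between -2.21 and -1.57 when nuclei were scaled to the same total or thinned. The other measured fat body markers were higher, with *Nplp2* at 1.53 and *Obp99c*, an odorant-binding protein gene, at 0.60. Without the 5 nuclei richest in each gene, *Nplp2* had a ratio of 0.89 and *Obp99c* one of 0.31, and *Obp99c* turned to -0.13 when every nucleus counted equally. The summed level of the 5 measured markers was 427 CPM after NaAsO2 and 381 CPM in the control, none was at 0, and *Lsp2* and *Obp99b* did not reach the minimum. Nuclei with at least 3 fat body markers numbered 190 after NaAsO2 (0.750% of nuclei) and 405 in the control (2.11%), and 0.420% after NaAsO2 and 0.933% in the control after thinning. The yolk protein genes are themselves among the markers that count these nuclei, and their part in these differences was not tested.

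The lowest ratio of all belonged to *CG14645* (3R:4335098-4335506), with 1 UMI after NaAsO2 and 380 UMIs, or 7.12 CPM, in the control. The log2 ratio was -8.34 with a counting interval of -13.64 to -5.85. In the control, 154 nuclei carried the transcript and nuclei with fat body markers held 52.9% of its UMIs. *CG14645* was also lower in the male NaAsO2 library, with 0.117 CPM after NaAsO2 and 150 CPM in the male control. *CG9377* (2L:13359901-13361565) had 271 UMIs (5.97 CPM) after NaAsO2 and 2105 UMIs (39.4 CPM) in the control, a log2 ratio of -2.72 (-2.91 to -2.54). It was found in 184 nuclei after NaAsO2 and 1239 in the control, with no more than 10 UMIs in a nucleus after NaAsO2 and 26 in the control, so the difference was not carried by a few nuclei. Its male values were 1.52 CPM after NaAsO2 and 24.1 CPM in the control. *phu* had 41 UMIs after NaAsO2 and 332 in the control, a log2 ratio of -2.78 (-3.29 to -2.31), and 51.2% of these UMIs after NaAsO2 and 78.3% in the control were in nuclei with fat body markers. *CG34220* had 81 UMIs after NaAsO2 and 234 in the control, a log2 ratio of -1.30.

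Peptide genes supplied 6 of the 39 lower genes and the strongest contrast within any list. Of 41 neuropeptide and peptide hormone genes, 34 were measured, of which 3 were higher and 6 lower. Over all genes, 3.39% were higher and 0.482% lower. The median log2 ratio of the peptide genes was -0.04. The 6 lower genes were *Lk* (leucokinin), *SIFa* (SIFamide), *Orcokinin*, *Pdf*, *Ms* (myosuppressin) and *Mip* (myoinhibiting peptide), and the 3 higher genes were *Trissin*, *AstC* (allatostatin C) and *Ilp3*, an insulin-like peptide gene. The other 25 lay between -0.41 (*CCAP*) and 0.53 (*AstCC*), among them *Dh31* at -0.35, *Ilp2* at 0.01 and *sNPF* at 0.10.

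*Pdf* (3R:26455462-26456141), the peptide of the ventral lateral clock neurons, had 6187 UMIs (136 CPM) after NaAsO2 and 25454 UMIs (477 CPM) in the control, a log2 ratio of -1.81 (-1.85 to -1.77). Nuclei with at least 10 *Pdf* UMIs numbered 28 after NaAsO2 and 55 in the control, and the richest nucleus had 1684 UMIs after NaAsO2 and 6378 in the control. At least 1 *Pdf* UMI was found far more widely, in 1307 nuclei after NaAsO2 (5.16% of nuclei) and 3613 in the control (18.8%). Outside the nuclei with at least 10 UMIs the log2 ratio was -1.33. This scattered part, in nuclei not known to make the peptide, was not read as expression, and its source was not tested. The ratio was -2.10 without the 5 richest nuclei and -1.43 without nuclei of 10000 or more UMIs, and in males *Pdf* had 52.2 CPM after NaAsO2 and 520 CPM in the control.

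*Orcokinin* had 6875 UMIs (152 CPM) after NaAsO2 and 34134 UMIs (640 CPM) in the control, a log2 ratio of -2.08 (-2.11 to -2.04). It had 22 nuclei with at least 10 UMIs after NaAsO2 and 69 in the control, and its ratio was -1.26 without nuclei of 10000 or more UMIs. *Ms* (3R:24341551-24343825) had 19386 UMIs (427 CPM) after NaAsO2 and 59487 UMIs (1115 CPM) in the control, a log2 ratio of -1.38, with 126 nuclei of at least 10 UMIs after NaAsO2 and 178 in the control. Both genes, like *Pdf*, had fewer rich nuclei and less scattered signal after NaAsO2. For *Ms* the ratio was -0.57 without the deepest nuclei, short of 1.5-fold.

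The lower values of *SIFa*, *Lk* and *Mip* were drawn in part from a few control nuclei, and *Mip* alone of the 3 lost its call without the 5 richest. *SIFa*, made by a few large neurons of the pars intercerebralis, had 468 UMIs (10.3 CPM) after NaAsO2 and 2552 UMIs (47.8 CPM) in the control, a log2 ratio of -2.21, and 1 control nucleus held 1406 of these UMIs. Without the 5 richest nuclei of each library the *SIFa* ratio was -0.99, and without nuclei of 10000 or more UMIs it was -2.31. *Lk* (3L:14560139-14560764) had 87 UMIs after NaAsO2 and 567 in the control (-2.47), with -1.27 without the 5 richest nuclei and -2.85 without the deepest. *Mip* had 2187 UMIs after NaAsO2 and 5900 in the control (-1.20), and -0.52 without them. *lncRNA:CR31781*, which is no peptide gene, had 148 UMIs after NaAsO2 and 1006 in the control (-2.53), and its ratio was -1.03 without the nuclei of 10000 or more UMIs.

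*Trissin* (3R:15484730-15485396), which encodes a cysteine-rich neuropeptide, had 15102 UMIs (333 CPM) after NaAsO2 and 4586 UMIs (85.9 CPM) in the control, a log2 ratio of 1.95 (1.91 to 2.0). The number of nuclei with at least 10 UMIs was nearly the same, 20 after NaAsO2 and 19 in the control. The richest nucleus had 5581 UMIs after NaAsO2 and 2269 in the control, and the 5 richest held 75.5% of the UMIs after NaAsO2 and 74.8% in the control. The ratio was 1.92 without those 5 nuclei, 1.0 after thinning and 0.73 when every nucleus was scaled to the same total. *AstC* (2L:11076165-11081399) had 24113 UMIs (532 CPM) after NaAsO2 and 9088 UMIs (170.3 CPM) in the control, a log2 ratio of 1.64 (1.61 to 1.68), with 100 nuclei of at least 10 UMIs after NaAsO2 and 110 in the control. The *AstC* ratio was 1.14 without the 5 richest nuclei. *Ilp3* (0.92) did not keep its direction: 6 nuclei after NaAsO2 and 13 in the control had at least 10 UMIs, and the ratio was -0.40 without the 5 richest nuclei.

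**Figure D3:**
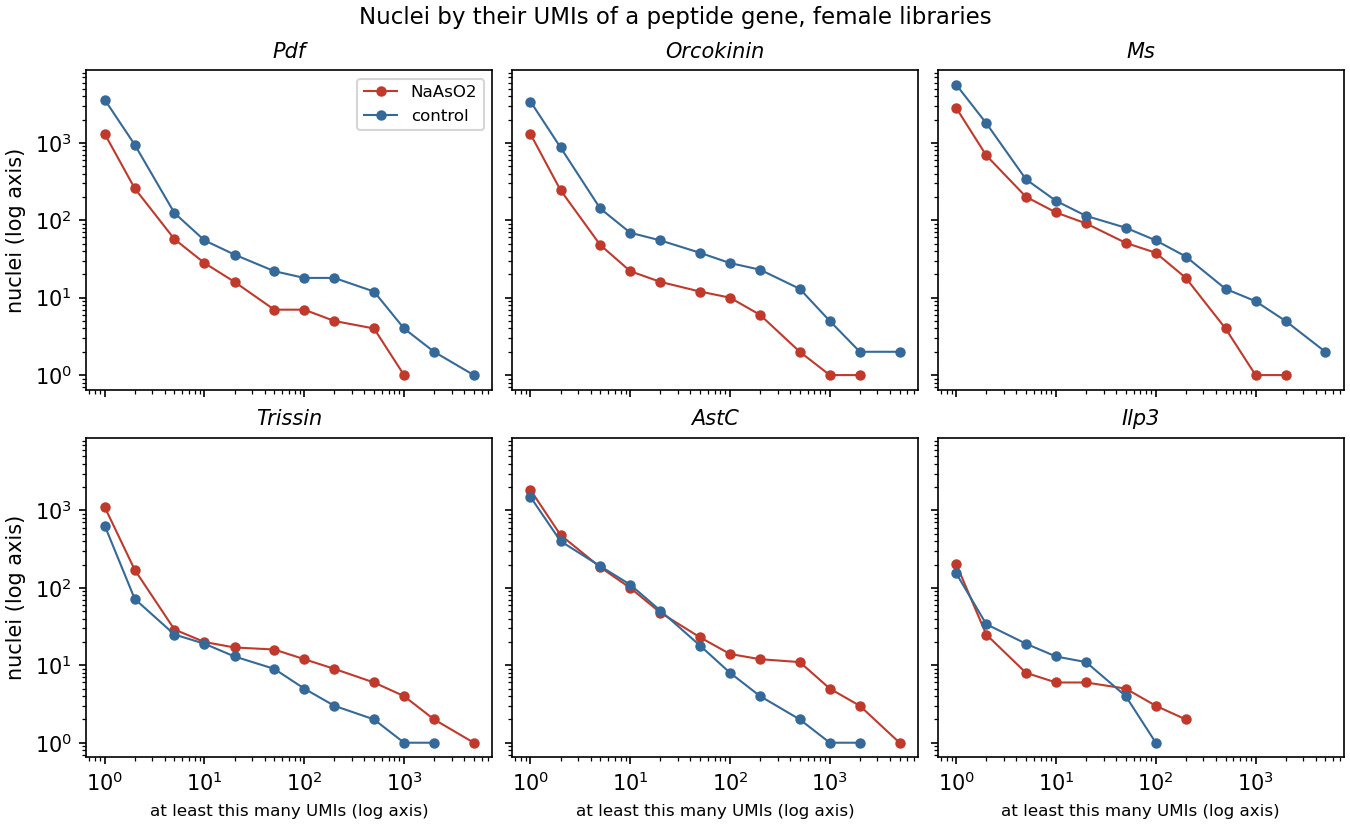
Number of nuclei (vertical log axis) with at least a given number of UMIs (horizontal log axis) of 6 peptide genes in the NaAsO2 library (red) and the control (blue). For *Pdf*, *Orcokinin* and *Ms* the NaAsO2 line lies below the control line at every number plotted, whereas for *Trissin* and *AstC* the lines meet near 10 UMIs (20 and 100 nuclei after NaAsO2, 19 and 110 in the control) and the NaAsO2 line lies above the control among the richest nuclei.

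Genes of the metal and arsenite response were mostly within 1.5-fold. In a list of 7 genes, made up of metallothioneins and their activator, 4 were measured and *MtnA* was higher, with a list median of 0.23. *MtnA* (3R:9783407-9784370) had 49583 UMIs (1093 CPM) after NaAsO2 and 33658 UMIs (631 CPM) in the control, a log2 ratio of 0.79 (0.77 to 0.81). It was 0.88 in *elav*+ nuclei and 0.98 in *repo*+ nuclei, but 0.42 after thinning, 0.48 with every nucleus scaled to the same total and 0.16 as mean UMIs per nucleus. One nucleus after NaAsO2 held 3616 *MtnA* UMIs, while the richest control nucleus held 427. Nuclei with any *MtnA* UMI numbered 16515 of 25332 after NaAsO2 and 13304 of 19188 in the control, a smaller share after NaAsO2. *MtnF* (0.24), *MtnE* (0.22) and *MTF-1* (-0.17), the metal-responsive transcription factor gene, lay within 1.5-fold.

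Of 8 genes for arsenite passage, 4 were measured and 2 were higher, with a median of 0.50. *Prip*, an aquaporin gene, had 5.60 CPM after NaAsO2 and 2.12 CPM in the control (log2 ratio 1.40, and 0.67 without the nuclei with plasmatocyte markers). *Eglp4*, which encodes an aquaporin-related glycerol channel, had 11.7 CPM after NaAsO2 and 6.56 CPM in the control (0.84, and 0.08 after thinning). *MRP*, an exporter of glutathione conjugates, stood at 0.01. Among 18 glutathione S-transferase genes measured, of 35 listed, 2 were higher and none lower, with a median of 0.28. Over all genes, 3.39% were higher. *GstE9* had 5.75 CPM after NaAsO2 and 1.97 CPM in the control (1.55), and *GstE12* 37.3 CPM after NaAsO2 and 24.2 CPM in the control (0.63), which was 0.34 after thinning and 0.22 when every nucleus counted equally. *GstD1*, a classical oxidant-responsive member, stood at 0.25.

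Of 81 cytochrome P450 genes, 30 were measured, 6 were higher and none lower, where 3.39% of all genes were higher, and the median was 0.26. Beside *Cyp6a23*, these were *Cyp9h1* (1.38), *Cyp311a1* (1.12), *Cyp4ac3* (0.92), *Cyp6d5* (0.72) and *Cyp6w1* (0.72). When every nucleus counted equally, *Cyp6a23* (1.86) and *Cyp4ac3* (0.79) stayed above 1.5-fold, and *Cyp9h1* (0.49), *Cyp6w1* (0.48), *Cyp311a1* (0.26) and *Cyp6d5* (0.11) did not. Of 35 UDP-glycosyltransferase genes, whose products attach sugars to foreign compounds, 14 were measured, 4 were higher and none lower, with *Ugt35A1* (0.85) the highest and a median of 0.31, but after thinning none of these 4 stayed above 1.5-fold, with ratios of 0.42 for *Ugt35A1* and *Ugt317A1*, 0.13 for *Ugt37D1* and 0.10 for *Ugt49C1*. No member of the Nrf2 and glutathione synthesis list passed in either direction (7 of 10 measured, median 0.06), and *Gclc*, the catalytic subunit gene of the rate-limiting step of glutathione synthesis, stood at 0.01. The same held for antioxidant enzymes (10 of 13 measured, median 0.17), where *Cat* was highest at 0.46.

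Heat shock genes were not higher. Of 18, 11 were measured, 2 were lower, where 0.482% of all genes were, and the median was -0.01. *Hsp83*, the fly Hsp90, had 11257 UMIs (248 CPM) after NaAsO2 and 19764 UMIs (370.4 CPM) in the control, a log2 ratio of -0.58 (-0.61 to -0.54), just inside 1.5-fold. The co-chaperone gene *DnaJ-1*, with 19.0 CPM after NaAsO2 and 28.6 CPM in the control (-0.59), and the small heat shock gene *Hsp27*, with 1.61 CPM after NaAsO2 and 2.44 CPM in the control (-0.60), were just outside it, *DnaJ-1* with -0.58 after thinning. *Hsp83* lay past 1.5-fold after thinning (-0.63), with every nucleus scaled to the same total (-0.65) and when centred on the median gene (-0.66). Without shared barcodes it stayed inside, at -0.57. *Hsp26* was highest at 0.34, and the inducible *Hsp68* stood at -0.07.

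Other stress and metabolic lists held few higher genes. Of the 14 genes of the unfolded protein and integrated stress response, *Thor*, the 4E-BP inhibitor of cap-dependent translation, was higher with 10.6 CPM after NaAsO2 and 6.43 CPM in the control (0.73, and 0.28 after thinning), and the median was 0.09. Of 5 genes of hypoxia and the growth brake, *Ldh*, lactate dehydrogenase, was higher with 6.66 CPM after NaAsO2 and 3.04 CPM in the control (1.13). No gene passed among 7 JNK pathway genes (median 0.01), 9 of cell death and DNA damage (median 0.20), or 8 of iron and metal transport (median 0.17). In the sugar list, where 2 of 8 genes were higher, *Ldh* was joined by *Tps1*, a trehalose synthesis gene. *Tps1* had 7.96 CPM after NaAsO2 and 4.82 CPM in the control (0.72), but *Tps1* stood at -0.09 after thinning. Of 11 lipid carrier and droplet genes *Npc2g* alone passed, and of 32 proteasome genes *Prosalpha1*, with 2.98 CPM after NaAsO2 and 1.46 CPM in the control (1.03), while the proteasome median was 0.23. Over all genes, 3.39% were higher.

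**Figure D4:**
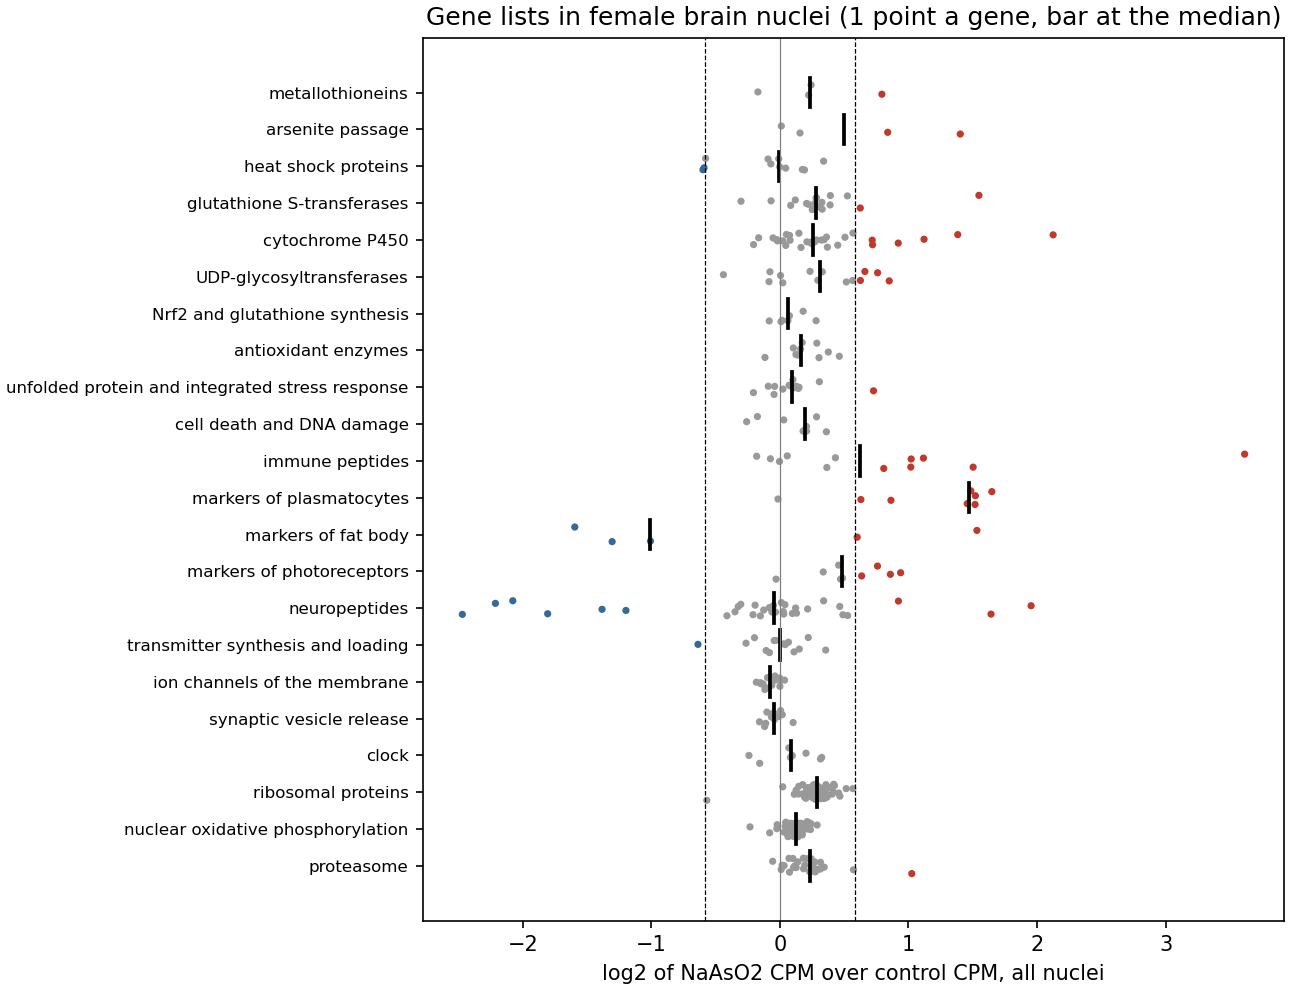
Log2 ratio of NaAsO2 CPM over control CPM over all nuclei (horizontal axis) for each measured gene of 22 lists (1 point a gene, short bar at the median); dashed lines mark 1.5-fold, red points are higher and blue points lower. Plasmatocyte markers have the highest median (1.47) and fat body markers the lowest (-1.01), and the neuropeptide list is the widest, with *Lk* at -2.47 and *Trissin* at 1.95 around a median of -0.04.

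Genes of ion channels and of synaptic vesicle release lay close to equal CPM. The 16 ion channel genes ranged from -0.18 (*para*, the voltage-gated sodium channel) to 0.04, with a median of -0.08, and none passed in either direction. The 12 genes of synaptic vesicle release ranged from -0.16 (*nSyb*) to 0.10 (*Snap25*), with a median of -0.05. Of 14 genes of transmitter synthesis and loading, *Hdc*, histidine decarboxylase of histaminergic neurons, was lower with 1.94 CPM after NaAsO2 and 3.02 CPM in the control (-0.64, and -0.23 after thinning), and *VGlut* (0.15) and *VAChT* (-0.20) were not. Among 11 activity and ecdysone regulated genes none passed, and *Hr38*, a nuclear receptor gene induced by neuronal activity, was highest with 178 CPM after NaAsO2 and 129 CPM in the control (0.47). The 8 clock genes had a median of 0.09, the 5 neuron markers one of -0.14 and the 5 Kenyon cell markers one of -0.06.

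Ribosomal protein genes were shifted together by less than 1.5-fold. Of 85 listed, 80 were measured, none passed and 79 lay above 0, with a median log2 ratio of 0.29. *RpL22* was the exception, with 63.1 CPM after NaAsO2 and 93.6 CPM in the control (-0.57). The list's median was 0.13 after thinning and -0.35 as mean UMIs per nucleus, so the direction depended on the scaling, and several members such as *RpS14a* and *RpS14b* have near-identical copies. The 60 measured genes of nuclear oxidative phosphorylation had a median of 0.13.

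Nuclei were then split by the detection of *elav* and *repo*. Nuclei with *elav* and no *repo* UMI numbered 15491 after NaAsO2 (61.2%, 60.5 to 61.8) and 14148 in the control (73.7%, 73.1 to 74.4). Nuclei with *repo* and no *elav* UMI numbered 369 after NaAsO2 (1.46%, 1.31 to 1.61) and 273 in the control (1.42%, 1.26 to 1.60). Nuclei with neither made up 35.1% after NaAsO2 and 20.9% in the control, and nuclei with both 2.25% after NaAsO2 and 3.95% in the control. After thinning to 1000 UMIs, which left out 7013 nuclei after NaAsO2 and 1718 in the control, the *elav*+ share was 52.2% after NaAsO2 and 54.5% in the control, and the share with neither was 45.7% after NaAsO2 and 43.2% in the control. The shares of the 2 libraries were closer after thinning. The nuclei with neither UMI held much neuronal RNA, with the synaptotagmin gene *Syt1* at 3401 CPM after NaAsO2 and 3400 CPM in the control. Markers of other cells were also present. Plasmatocyte markers summed to 766 CPM after NaAsO2 and 426 CPM in the control, against 381 and 263 CPM in *elav*+ nuclei. Markers of astrocyte-like glia summed to 813 CPM after NaAsO2 and 1103 CPM in the control, against 521 and 633 CPM in *elav*+ nuclei.

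In *repo*+ nuclei the glial genes *zyd* (1136 CPM after NaAsO2 and 1001 CPM in the control) and *Gat* (565 CPM after NaAsO2 and 482 CPM in the control) were far above their level in *elav*+ nuclei, where *zyd* stood at 84.4 CPM after NaAsO2 and 89.3 CPM in the control. Neuronal genes were not absent from them: *nSyb* stood at 514 CPM after NaAsO2 and 648 CPM in the control, against 962 CPM after NaAsO2 and 1063 CPM in the control in *elav*+ nuclei. The *repo*+ nuclei thus held glial RNA together with RNA of neurons, and are called by their rule here.

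In *elav*+ nuclei, 7630 genes were measured, of which 191 (2.5%) were higher and 38 (0.498%) lower. As mean UMIs per nucleus these counts were 49 and 2333, and 121 and 78 when every nucleus counted equally. Of the genes called over all nuclei, 148 higher genes (54.0% of the 274 and 77.5% of the 191) and 32 lower genes (82.1% of the 39 and 84.2% of the 38) were also called here, as the nuclei are mostly the same. *Drs* was again highest, with 187 UMIs after NaAsO2 and 21 in the control (3.60), and *CG14645* lowest, with 1 UMI after NaAsO2 and 219 in the control (-7.33). *Trissin* (1.99), *Npc2g* (2.48), *lectin-28C* (1.99) and *CG42369* (1.96) were among the 8 highest, and *Lk* (-3.11), *CG9377* (-2.90), *SIFa* (-2.50), *phu* (-2.50), *Pdf* (-1.70) and *Yp3* (-1.68) among the 8 lowest. Markers of fat body and plasmatocytes were detected in *elav*+ nuclei too, where 6 of the 8 plasmatocyte markers were higher (median 1.2), and 168 *elav*+ nuclei after NaAsO2 and 133 in the control had at least 3 of them.

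Several of the highest *elav*+ ratios rested on few nuclei. *emp*, a scavenger receptor gene, had 247 UMIs after NaAsO2 and 62 in the control (2.44), but 0.89 without the 5 richest nuclei. *CG9812* (2.25) and *CG10939* (2.18) had ratios of 1.06 and 0.82 without them, and 1 nucleus held 91 of the 213 *CG10939* UMIs after NaAsO2. Without the 5 richest nuclei of each gene, 127 of the 191 higher genes and 38 of the 38 lower genes still passed. Among peptide genes, *NPF* (0.67) and *FMRFa* (0.82) passed in *elav*+ nuclei beside *Trissin*, *AstC* and *Ilp3*. *FMRFa* had 42.6 CPM after NaAsO2 and 24.1 CPM in the control in this class.

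In *repo*+ nuclei 1145 genes reached the minimum, of which 94 (8.21%) were higher and 59 (5.15%) lower, with a median log2 ratio of -0.12. The class had 568411 UMIs after NaAsO2 and 475538 in the control, and the interval lay past 1.5-fold for 28 of the higher and 7 of the lower genes. Centred on the median, 130 genes were higher and 24 lower, and as mean UMIs per nucleus 44 were higher and 190 lower. Only 1144 genes were measured in both classes, which limits any overlap of calls. Of the 94 higher genes, 7 (7.45%) were also higher in *elav*+ nuclei, which is 3.66% of the 191 there. Most of the 191 did not reach the minimum in *repo*+ nuclei, and of the 7 that did, all 7 were higher in both classes. The minimum sums both libraries, so a gene can reach it through a high NaAsO2 library alone. *Ilp3* did so, with 322 *repo*+ UMIs after NaAsO2 and 24 in the control, and the 7 of 7 is not read as a shared response. Of the 59 lower genes, 2 (3.39%) were also lower in *elav*+ nuclei, 5.26% of the 38 there, and 2 of the 4 that reached the minimum in both.

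Ribosomal protein genes were 44 of the 94 higher *repo*+ genes. Of 75 measured, 44 were higher, none was lower and all 75 lay above 0, with a median of 0.61 against -0.12 over all genes of the class. *RpL35A* had the highest ratio among them, with 503 CPM after NaAsO2 and 254 CPM in the control (0.98). The median of the same list in *elav*+ nuclei was 0.26. The mitochondrial large ribosomal RNA, *lrRNA*, was also higher in *repo*+ nuclei, with 3811 CPM after NaAsO2 and 1636 CPM in the control (1.22), against 0.16 in *elav*+ nuclei. In contrast, all 11 measured ion channel genes lay below 0 (median -0.45) and all 9 measured genes of synaptic vesicle release as well (median -0.38), with *para* at 2196 CPM after NaAsO2 and 3474 CPM in the control (-0.66). These neuronal genes and the ribosomal genes moved apart in the same nuclei, and the part of neuronal RNA in these differences was not tested.

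**Figure D5:**
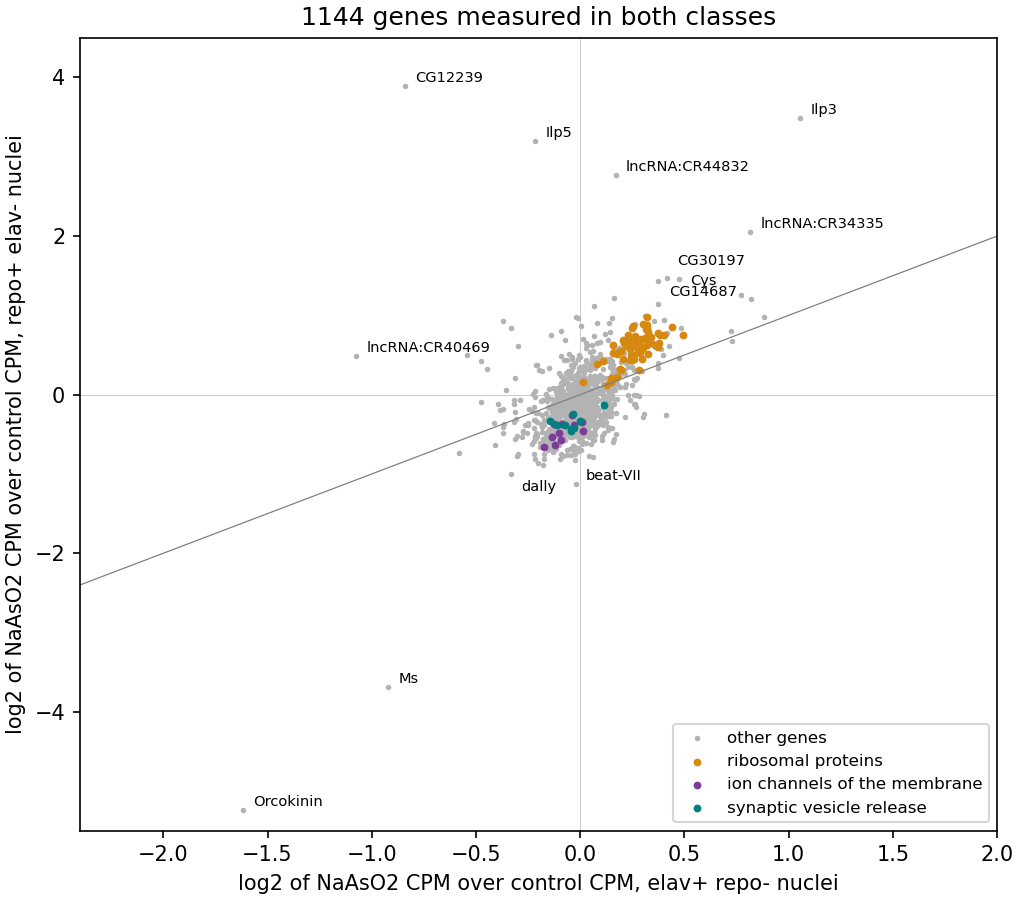
Log2 ratio of NaAsO2 CPM over control CPM in *repo*+ *elav*- nuclei (vertical axis) against that in *elav*+ *repo*- nuclei (horizontal axis) for 1144 genes measured in both; the line marks equal ratios, and the axes have different scales. Ribosomal protein genes (orange) lie higher on the vertical axis, with medians of 0.61 in *repo*+ and 0.26 in *elav*+ nuclei, and ion channel (purple) and vesicle release genes (teal) lie lower, with medians of -0.45 and -0.38 in *repo*+ nuclei.

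Genes with a glial level in this class included higher ones that were spread over many nuclei. *Cys*, a cystatin-like protease inhibitor gene, had 615 UMIs (1082 CPM) after NaAsO2 and 187 UMIs (393 CPM) in the control, a log2 ratio of 1.46 (1.22 to 1.7), in 101 nuclei after NaAsO2 and 58 in the control, and 1.53 without the 5 richest nuclei. *CG30197* had 246 UMIs after NaAsO2 and 74 in the control (1.48, and 1.45 without the 5 richest nuclei), and *CG14687* 245 UMIs after NaAsO2 and 76 in the control (1.43, and 1.54). *Mdr65*, the drug efflux transporter of the subperineurial glia that form the blood-brain barrier, had 436 CPM after NaAsO2 and 223 CPM in the control (0.97), and *CG10226* 225 UMIs after NaAsO2 and 99 in the control (0.93), against -0.37 in *elav*+ nuclei. *CG10226* rested on fewer nuclei, with 8 of at least 10 UMIs after NaAsO2 and 2 in the control. Below 10 UMIs it stood at 158 CPM after NaAsO2 and 147 CPM in the control, and its ratio was 0.26 after thinning. Over all nuclei, the 3 subperineurial markers *Mdr65*, *moody* and *kune* had ratios of 0.46, 0.46 and 0.40. After thinning *moody* stood at 0.09 and *kune* at 0.36. In *elav*+ nuclei *Mdr65* stood at -0.01, and in nuclei with neither UMI the median of the 3 markers was -0.47. *Vmat*, a vesicular monoamine transporter gene, had 894 CPM after NaAsO2 and 454 CPM in the control in *repo*+ nuclei (0.98), and the iron carrier gene *Tsf1* 908 CPM after NaAsO2 and 542 CPM in the control (0.74).

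The markers of other glia differed less. In *repo*+ nuclei no marker of astrocyte-like, ensheathing, cortex or perineurial glia passed, with list medians of -0.10, -0.36, 0.18 and 0.41. Over all nuclei, *Eaat1*, the astrocytic glutamate transporter gene, had 350.0 CPM after NaAsO2 and 427 CPM in the control (-0.29), and *hoe1* stood at -0.36.

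The very highest *repo*+ ratios came from 1 or 2 nuclei. *Ilp3* had 322 UMIs after NaAsO2, of which 320 were in 1 nucleus, and 24 UMIs in the control, all in 1 nucleus. *Ilp5* had 339 UMIs after NaAsO2, of which 332 were in 1 nucleus, and 31 in the control, and its ratio of 3.19 became -2.26 without the 5 richest nuclei. Both are genes of the insulin-producing neurons. *CG12239* (3.89) had 516 of its 904 UMIs in 1 nucleus after NaAsO2 and 51 UMIs in the control, and became -0.41, while over all nuclei it had 519 CPM after NaAsO2 and 798 CPM in the control (-0.62). *lncRNA:CR44832* (2.77) became 0.30. *Orcokinin* (-5.23) and *Ms* (-3.68) were lowest, and 1 control nucleus held 811 of the 882 *Orcokinin* UMIs and 1 held 1530 of the 1688 *Ms* UMIs.

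*lncRNA:CR34335* (X:3545750-3546110) was the most abundant gene among those called. It had 6256 CPM after NaAsO2 and 2757 CPM in the control over all nuclei, a log2 ratio of 1.18, and 32060 UMIs after NaAsO2 and 6490 in the control in *repo*+ nuclei (2.05). One *repo*+ nucleus held 15443 of the 32060 UMIs after NaAsO2, and without the 5 richest nuclei the *repo*+ ratio was 1.35. A further noncoding gene, *lncRNA:CR40469*, had a ratio of 0.49 in *repo*+ and -1.08 in *elav*+ nuclei, but -0.54 in *repo*+ nuclei without the 5 richest.

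Lower *repo*+ genes beside *Orcokinin* and *Ms* were spread over many nuclei. *dally*, a cell surface glypican gene, had 420 UMIs (739 CPM) after NaAsO2 and 703 UMIs (1478 CPM) in the control, a log2 ratio of -1.0 (-1.18 to -0.82), in 164 nuclei after NaAsO2 and 153 in the control. *beat-VII*, an immunoglobulin superfamily gene, had 102 UMIs after NaAsO2 and 186 in the control (-1.12). *wry* (-0.89), *CG43902* (-0.87), the neuroligin gene *Nlg4* (-0.82) and *VAChT*, the vesicular acetylcholine transporter gene (-0.82), completed the 8 lowest. *ome* (-0.79) and *Calx*, a sodium-calcium exchanger gene (-0.78), stood at 0.06 and 0.04 in *elav*+ nuclei. After thinning, *dally* (-0.41), *VAChT* (-0.54), *Calx* (-0.28) and *Nlg4* (-0.25) fell short of 1.5-fold in *repo*+ nuclei, and *ome* turned to 0.22. *CG43902* (-0.92), *beat-VII* (-0.75) and *wry* (-0.60) still passed. *Hsp83* was lower in this class (-0.73).

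In the male libraries of the series, lower calls far outnumbered higher ones. In them, 172 of 7692 genes (2.24%) were higher and 1707 (22.2%) lower after NaAsO2. Of the 274 genes higher in females, 210 were measured in males, where 9 (4.29%) were higher and 133 (63.3%) lower. Of the 39 genes lower in females, 30 were measured in males, where 16 (53.3%) were lower and 8 (26.7%) higher. Each of these shares was above the male share over all genes in its direction, 2.24% higher or 22.2% lower. *CG14645*, *CG9377*, *Pdf*, *Orcokinin*, *Ms* and *SIFa* were lower in both sexes, with male log2 ratios of -10.33, -3.99, -3.32, -2.45, -1.77 and -1.81. *Trissin* (-0.28) and *AstC* (-0.39) did not have a higher male ratio. Opposite signs in the 2 sexes were common, in 64.2% of the 7631 genes measured in both. The male NaAsO2 library held 10000 nuclei with at least 1766 UMIs each, against a lowest count of 500 in the other 3 libraries, and the part of this in the male ratios was not tested. With 1 library per sex and treatment, the difference between the sexes was not tested.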

How the data were processed

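Nuclei of 10 pooled brains per sex and treatment were profiled with 10x Genomics 3′ chemistry. The authors made the deposited matrices of raw UMI counts per gene and nucleus with Cell Ranger against genome release 6, with 5000 expected cells. The paper and the submitters' processing notes give Cell Ranger 3.1 and the matrix headers 7.0.1, and the annotation version is not given in the sources used here. The lowest count per nucleus was 500 UMIs in both female libraries and the male control, and 1766 in the male NaAsO2 library. No further filter was applied and no doublets were removed.

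Features were matched by locus tag to RefSeq (Release 6), which named 17704 of 17772. UMIs were summed per gene over all nuclei and over nuclei split by *elav* and *repo* detection (at least 1 UMI), divided by the class total and multiplied to CPM. Genes with at least 200 UMIs over both female libraries in the class were compared. Intervals were exact Poisson (levels), conditional binomial (ratios) and Clopper-Pearson (shares) at 95%, computed in Python 3.11.15 with NumPy 2.4.6, SciPy 1.17.1 and pandas 2.3.3. The ratio intervals were tried on simulated Poisson counts per gene. That simulation held counting error only and not the uneven spread of UMIs over nuclei, so it checks the computation alone. Named genes were the 12 highest and 12 lowest over all nuclei, the 8 highest and 8 lowest in each class, the 6 most above and 6 most below in *repo*+ relative to *elav*+ nuclei, and members of 40 gene lists; *lncRNA:CR34335* and *CG12239* over all nuclei were given beside their class values. The members and lists were chosen with earlier results of these data known. Alternatives were other scalings, thinning to 1000 UMIs, other minimums, and omission of mitochondrial and rRNA genes, shared barcodes or particular nuclei.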

Additional observations from a re-analysis of the deposited data

Results flagged for a closer look

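In 9 of the 12 genes with the highest female ratios, the male pair was at least 1.5-fold lower after NaAsO2. The difference was not tested because each sex had 1 library per treatment. Lower male values were common among all genes called higher in females, in 133 (63.3%) of the 210 measured in males. Of all genes with a ratio above 0 in females, 74.5% had one below 0 in males. Opposite directions were thus not particular to these 9 genes. The male NaAsO2 library held 10000 nuclei with at least 1766 UMIs each, against a lowest count of 500 in the other libraries. Genes with most of their UMIs in nuclei with plasmatocyte markers were *lectin-28C*, with a log2 ratio of 2.08 in females and -2.08 in males, *Cyp6a23*, with 2.13 in females and -2.05 in males, and *CG42711*, with 2.05 in females and -2.11 in males. The same was seen for *lectin-24Db*, with 1.94 in females and -2.54 in males, *CG42369*, with 1.93 in females and -2.71 in males, and *Idgf1*, with 1.93 in females and -1.14 in males. *CG31777* had 2.02 in females and -0.77 in males. *Npc2g*, found mostly in nuclei with fat body markers, had 2.23 in females and -1.73 in males, and *CG15096* had 2.24 in females and -0.81 in males. *NimC1*, a plasmatocyte marker, had 4.05 CPM after NaAsO2 and 9.66 CPM in the control in males, against 11.8 CPM after NaAsO2 and 3.75 CPM in the control in females.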

How the results depend on the processing

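Counts of higher and lower genes depended on scaling and on the minimum. Beside 274 higher and 39 lower genes over all nuclei, 191 and 38 in *elav*+ nuclei and 94 and 59 in *repo*+ nuclei, mean UMIs per nucleus gave 82 and 3478, 49 and 2333, and 44 and 190 in the same order. Scaling each nucleus to the same total gave 150 and 77, 121 and 78, and 39 and 25. A minimum of 20 UMIs gave 964 and 258, 845 and 256, and 587 and 508, and one of 1000 UMIs 63 and 20, 33 and 18, and 8 and 8. Thinning gave 70 higher genes over all nuclei, 33 in *elav*+ nuclei, and 30 higher and 14 lower in *repo*+ nuclei. Centring gave 24 lower *repo*+ genes, and at least 2 UMIs of the class gene 28 higher and 23 lower of 133. In alternatives chosen after seeing the data, omitting nuclei with plasmatocyte markers gave 143 higher genes over all nuclei, omitting the 5 richest nuclei 62 higher in *repo*+ nuclei, and omitting nuclei of 10000 or more UMIs 158 higher over all nuclei, 102 higher in *elav*+ nuclei and 38 lower in *repo*+ nuclei. The immune peptide median turned to -0.015 as mean UMIs per nucleus and -0.14 with each nucleus scaled. In *repo*+ nuclei, thinning turned *CG12239* to -0.93, *Ilp5* to -2.74, *lncRNA:CR44832* to -1.17 and *ome* to 0.22, and omitting the 5 richest nuclei turned *CG12239* to -0.41 and *Ilp5* to -2.26. The cause was not tested. Totals without mitochondrial and rRNA genes, and omission of shared barcodes or of nuclei with both *elav* and *repo*, kept every count within 1.5 times. No ratio could be given for *CG14645* where thinning or omission of the richest nuclei left it without UMIs after NaAsO2, nor for *Ilp3* and *Ilp5* in *repo*+ nuclei where they were left without UMIs. No paired analysis was possible because each group had 1 library. The *repo*+ class, with 369 nuclei after NaAsO2 and 273 in the control, had 1145 genes past the minimum.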

Other observations

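The ratios differed with gene length in both sexes. In the 2023 shortest genes (64 to 1681 bases) the female median log2 ratio was 0.18 and 5.44% of genes were higher, and in the 2021 longest genes (8252 bases or more) the median was 0.00 and 1.93% were higher. Male medians were -0.46 in the shortest and 0.03 in the longest of these groups. Of genes on arm 2L, 5.18% were higher in females, and of the 86 measured genes on chromosome 4, 0 were, against 3.39% over all genes.

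Genes of phototransduction were mostly above 0 in females. Of 10 photoreceptor markers, 9 were measured and 4 were higher, where 3.39% of all genes were. Their median was 0.49, with a summed level of 969 CPM after NaAsO2 and 850 CPM in the control. *Arr2*, an arrestin gene, had 199 CPM after NaAsO2 and 110 CPM in the control, a log2 ratio of 0.86 that was 0.47 without nuclei of 10000 or more UMIs. There *Arr1* stood at 0.32 and *trp* at 0.55, beside 0.64 and 0.76 over all nuclei, while *trpl*, a channel gene of phototransduction, had 0.68 there and 0.94 over all nuclei. In males *Arr2* had 75.8 CPM after NaAsO2 and 604 CPM in the control. Female nuclei with at least 3 of these markers numbered 364 after NaAsO2 (1.44%) and 286 in the control (1.49%), and their part in these differences was not tested.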
